A study of Xenopus laevis with 18 samples.

Results

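The 4 transcripts described here encode cathepsin B (ctsb.L and ctsb.S) and cathepsin V (ctsv.L and ctsv.S) of the African clawed frog Xenopus laevis. They were taken by symbol from the deposited tables, as 4 of 51026 named transcripts. The frog is allotetraploid, so most of its genes exist as a pair of homeologs, one on a long (.L) and one on a short (.S) chromosome, and the files name both an L and an S transcript for each gene here. The files list ctsb.L as gene2902 (2881 nt), ctsb.S as gene15301 (2843 nt), ctsv.L as gene13520 (2363 nt) and ctsv.S as gene32822 (2360 nt). A RefSeq gene table of assembly Xenopus_laevis_v10.1 held 3 of the 4 symbols as genes of their own and ctsv.S as a synonym of ctsv.L, so whether the deposited ctsv.S is the S homeolog or another copy of ctsv.L was not settled. The 4 were selected on their levels in these same libraries, with earlier results known, and the comparison behind the choice was not recorded, so every fold change of a cathepsin B or V mRNA below is a description with no p-value.

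Cathepsins B and V are cysteine proteases of the papain family that work in lysosomes and other acidic compartments. They are made as inactive precursors with a signal peptide, so their mRNAs are normally translated by ribosomes on the endoplasmic reticulum (ER), and the precursors pass through the Golgi before they are activated. Human cathepsin V is a close relative of cathepsin L, and cathepsin B can also remove dipeptides from the end of a protein chain. In frog oocytes, yolk is stored in platelets derived from the endocytic and lysosomal pathway, where another cathepsin, cathepsin D, is known to process yolk precursors.

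The series measured RNA in fractions of fully grown oocytes and of eggs. Eggs were stage VI oocytes, freed of their follicle cells, that had been matured with 2 µM progesterone to germinal vesicle breakdown, and oocytes were kept in the same medium at 18 °C without the hormone. Each was separated into an ER, a pellet and a cytosol fraction, giving 6 groups of 3 libraries: egg ER, egg pellet, egg cytosol, oocyte ER, oocyte pellet and oocyte cytosol. A library was a pool of 4 cells, to which 5 spike-in RNAs were added before extraction. The labels call the replicates biological but do not say whether they came from separate frogs, so the spread between libraries may be partly technical. Libraries held 23095791 to 37834030 estimated counts, and the 4 cathepsin transcripts had between 341 and 12924 counts in each library. Of 31 listed oocyte marker transcripts 28 averaged at least 1 CPM (counts scaled to a common library size) in every group, with 2057 to 4703 CPM in sum. In ER libraries a single transcript, ccdc50.L, took 21.9 to 29.6% of all TPM (abundance corrected for transcript length and scaled to a fixed sum) in eggs and 16.9 to 17.8% in oocytes. Since TPM sum to a constant, a larger share of 1 transcript lowers the TPM of the others in that library.

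In the cytosol the mRNAs of both cathepsins were far lower in eggs than in oocytes. The level of ctsb.L was 69.9, 60.8 and 66.2 TPM in egg cytosol, against 480, 477 and 492 TPM in oocyte cytosol. The level of ctsb.S was 119, 107 and 109 TPM in egg cytosol, against 453, 490 and 500.0 TPM in oocyte cytosol. No egg library came near an oocyte library for either homeolog of cathepsin B. The level of ctsv.L was 30.5, 22.1 and 27.0 TPM in egg cytosol, against 272, 278 and 275 TPM in oocyte cytosol. The level of ctsv.S was 40.4, 38.0 and 41.8 TPM in egg cytosol, against 159, 188 and 165 TPM in oocyte cytosol. The cathepsin V groups did not overlap either, and ctsv.L had the lowest cytosolic level of the 4 in eggs.

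On the fitted scale, egg cytosol over oocyte cytosol, the log2 fold change was -3.46 ± 0.08 (SE) for ctsv.L, a 10.98-fold lower level in eggs. It was -2.97 ± 0.07 for ctsb.L, a 7.82-fold lower level, and -2.20 ± 0.06 for ctsb.S, a 4.60-fold lower level. It was -2.18 ± 0.09 for ctsv.S, a 4.53-fold lower level. These values come from 1 edgeR quasi-likelihood fit over all 18 libraries, in which the typical transcript is set to no change by TMM scaling. All 4 passed the filter on low counts. Of the 25938 transcripts tested, 18.6% were called lower in this comparison at a Benjamini-Hochberg adjusted p under 0.05. Only 0.123% of transcripts tested had a lower log2 fold change than ctsv.L, and 0.220% a lower one than ctsb.L. The values were 0.536% for ctsb.S and 0.563% for ctsv.S. Under scaling to the spike-ins, the alternative nearest to an absolute scale, the log2 fold changes were -2.70, -1.94, -3.20 and -1.92 for ctsb.L, ctsb.S, ctsv.L and ctsv.S. In the authors' deposited table, the ratio of egg to oocyte mean attomolar concentrations in the cytosol was 0.156 for ctsb.L, 0.267 for ctsb.S, 0.112 for ctsv.L and 0.283 for ctsv.S.

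**Figure D1:**
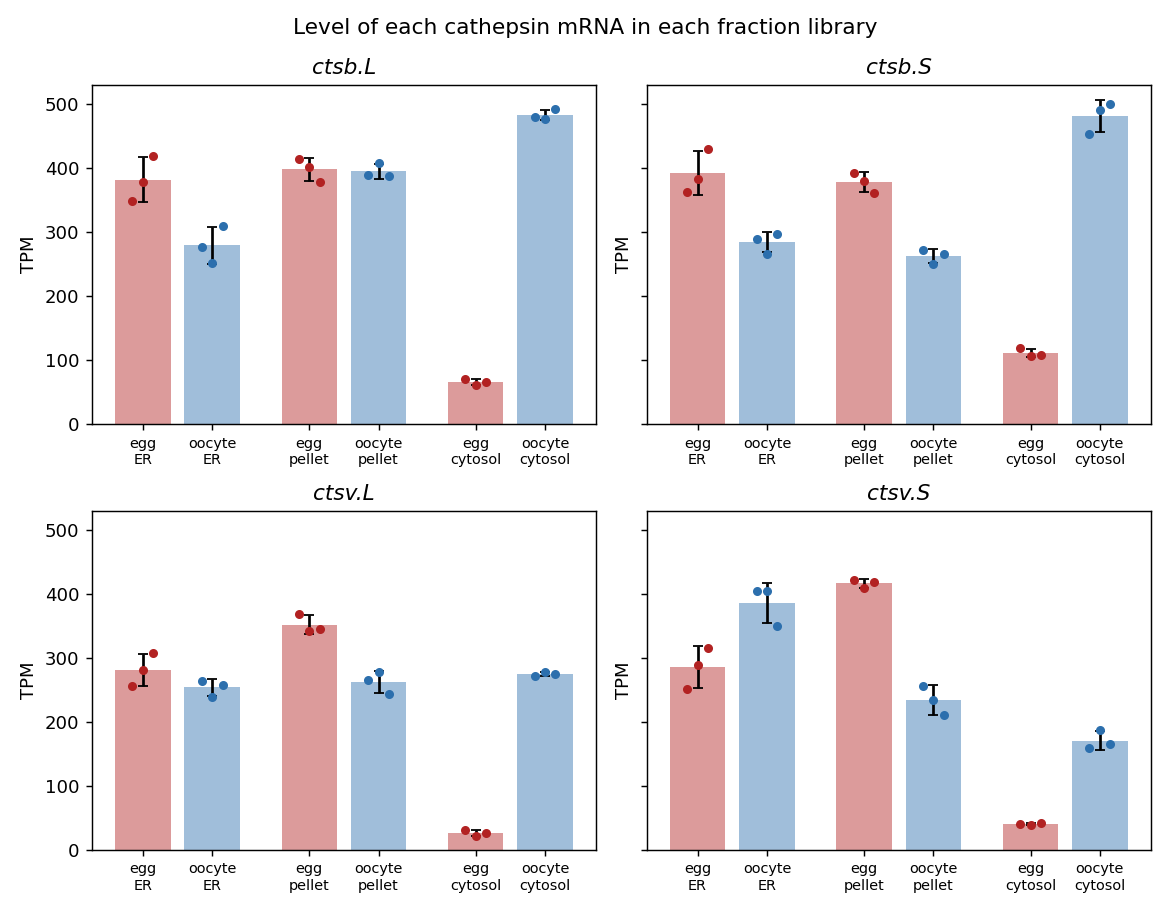
Level of each cathepsin mRNA in TPM (vertical axis) in each of the 18 libraries (points), with the mean (bar) and SD (error bar, n = 3) of each group, eggs in red and oocytes in blue. In the cytosol the egg points of ctsb.L lie between 60.8 and 69.9 TPM and its oocyte points between 477 and 492 TPM, and each of the other 3 mRNAs is also lower in egg cytosol than in oocyte cytosol.

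In the ER the 4 mRNAs did not all lie on one side. The level of ctsb.L was 349, 378 and 419 TPM in egg ER, against 277, 252 and 309 TPM in oocyte ER. The level of ctsb.S was 363, 382 and 430 TPM in egg ER, against 289, 266 and 297 TPM in oocyte ER. For cathepsin B every egg ER library was thus above every oocyte ER library. The level of ctsv.L was 256, 281 and 307 TPM in egg ER, against 264, 239 and 258 TPM in oocyte ER, and here the groups overlapped. The level of ctsv.S was 251, 289 and 316 TPM in egg ER, against 404, 404 and 350 TPM in oocyte ER, so that this transcript alone was lower in every egg ER library.

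The log2 fold change of egg ER over oocyte ER was 0.61 ± 0.06 for ctsb.L, 0.62 ± 0.06 for ctsb.S and 0.31 ± 0.07 for ctsv.L, and these directions flip to -0.11, -0.0856 and -0.40 under scaling to the spike-ins. For ctsv.S it was -0.28 ± 0.08, and -0.97 under scaling to the spike-ins. On average, spike-in scaling changes the log2 fold changes of this comparison by -0.70, where egg ER libraries held 55041 to 62101 spike-in counts and oocyte ER libraries 32883 to 47659. Called transcripts made up 12.4% of those tested in the higher direction and 16.1% in the lower direction. In the authors' deposited table the ratio of egg to oocyte mean attomolar concentrations in the ER was 0.926 for ctsb.L, 0.937 for ctsb.S, 0.752 for ctsv.L and 0.495 for ctsv.S.

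In the pellet the cathepsin V mRNAs and ctsb.S stood higher in eggs than in oocytes, while ctsb.L did not separate the stages in TPM. The level of ctsv.S was 422, 409 and 419 TPM in egg pellet, against 257, 235 and 210 TPM in oocyte pellet. The level of ctsv.L was 368, 341 and 345 TPM in egg pellet, against 265, 278 and 244 TPM in oocyte pellet. Neither cathepsin V transcript overlapped between the stages. The level of ctsb.S was 392, 380 and 361 TPM in egg pellet, against 273, 250 and 266 TPM in oocyte pellet, again with no overlap. The level of ctsb.L was 414, 402 and 378 TPM in egg pellet, against 390, 408 and 387 TPM in oocyte pellet, with overlapping groups. In CPM its groups lay close but did not overlap, at 353, 371 and 350 in egg pellet, against 325, 344 and 331 in oocyte pellet.

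The log2 fold change of egg pellet over oocyte pellet was 0.93 ± 0.08 for ctsv.S, 0.62 ± 0.06 for ctsb.S, 0.52 ± 0.07 for ctsv.L and 0.10 ± 0.06 for ctsb.L. Of all transcripts tested, 22.3% were called higher and 21.4% lower in this comparison. Spike-in scaling moved this comparison by 0.02 on average. Listed markers of follicle and theca cells had their highest sum in the pellet. The 47 transcripts summed to 168 to 196 CPM in egg pellet, against 108 to 142 CPM in oocyte pellet, and to at most 58.2 CPM in any ER or cytosol library. The members did not move together, since of the 33 tested 5 were called higher and 5 lower in egg pellet than in oocyte pellet, with a median log2 fold change of -0.07. In egg pellet 22 of the 47 averaged at least 1 CPM, against 24 in oocyte pellet. The highest levels in egg pellet were those of hsd3b1.L, a steroid-making enzyme, with 58.2 TPM in egg pellet and 14.8 TPM in oocyte pellet, and of gata6.S, a transcription factor, with 24.9 TPM in egg pellet and 12.1 TPM in oocyte pellet. On the other side, star.L, which brings cholesterol into mitochondria, averaged 4.5 TPM in egg pellet and 7.76 TPM in oocyte pellet, and inha.L, an inhibin subunit, 0.938 TPM in egg pellet and 2.54 TPM in oocyte pellet. The transcripts kitlg, lum.S and dcn.S were at 0 in all groups, while kitlg.L and dcn.L were at no more than 0.193 TPM in any. Not every marker was highest in the pellet, as acta2.L averaged 17.4 TPM in egg cytosol and 10.7 TPM in egg pellet. Whether the marker transcripts came from follicle and theca cells or from the oocytes and eggs was not tested. The part of follicle and theca cells in the pellet levels of the cathepsin mRNAs was not tested either. Listed endothelium markers summed to 143 to 157 CPM in egg pellet and 93.8 to 139 CPM in oocyte pellet, against 119 to 138 CPM in oocyte cytosol. Of these, cldn5.L averaged 54.2 TPM in egg pellet and 12.7 TPM in oocyte pellet. In contrast, tek.S averaged 14.1 TPM in egg pellet and 25.5 TPM in oocyte cytosol. The source of these transcripts was not tested. Markers of leukocytes and macrophages, cells rich in cathepsins in other tissues, summed to between 11.04 and 20.04 CPM in each library. Among them laptm5.S averaged 5.58 TPM in egg ER to 11.7 TPM in egg cytosol. The mean of cd74.L ran from 1.09 TPM in egg cytosol to 3.03 TPM in egg pellet, while tyrobp.S and c1qc.L were at 0 in all groups.

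**Figure D2:**
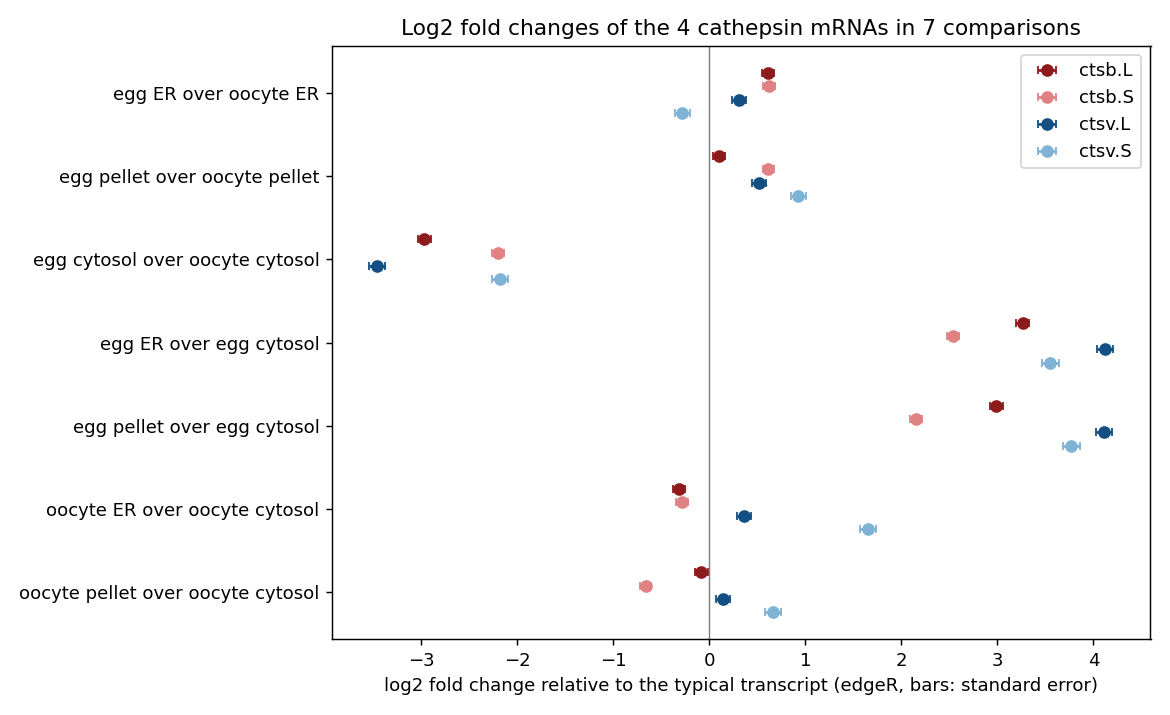
Log2 fold change (horizontal axis, relative to the typical transcript) of each cathepsin mRNA in the 7 comparisons, with its SE as an error bar, from the edgeR fit over 18 libraries with TMM scaling. In the cytosol all 4 values of egg over oocyte lie between -3.46 and -2.18, and ER over cytosol lies between 2.54 and 4.12 in eggs, against -0.32 to 1.65 in oocytes. Under scaling to the spike-ins the positive values of ctsb.L, ctsb.S and ctsv.L for egg ER over oocyte ER turn negative, as do those of ctsv.L for oocyte ER and of both cathepsin V mRNAs for oocyte pellet over cytosol.

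Within a stage, the place of the mRNAs differed between eggs and oocytes. In eggs, ER over cytosol, the log2 fold change was 4.12 ± 0.09 for ctsv.L, 3.55 ± 0.09 for ctsv.S, 3.26 ± 0.07 for ctsb.L and 2.54 ± 0.06 for ctsb.S. In oocytes it was 0.36 ± 0.07 for ctsv.L, which flips to -0.46 under scaling to the spike-ins, 1.65 ± 0.08 for ctsv.S, -0.32 ± 0.06 for ctsb.L and -0.29 ± 0.06 for ctsb.S. Scaled to the spike-ins, ER over cytosol in eggs was 2.34 for ctsv.L, 1.77 for ctsv.S, 1.48 for ctsb.L and 0.76 for ctsb.S, where the median of all transcripts tested was -1.80. In oocytes it was 0.82 for ctsv.S, -1.12 for ctsb.L and -1.10 for ctsb.S, against a median of -0.81. With TMM scaling, in egg libraries 99.2% or more of transcripts tested had a lower ER over cytosol value than each of the 4. In oocytes 97.6% had a lower value than ctsv.S, but 74.6% than ctsv.L, 28.5% than ctsb.S and 26.6% than ctsb.L. Called higher in ER were 18.4% of transcripts in eggs and 24.3% in oocytes. Called lower in ER were 21.7% in eggs and 24.8% in oocytes.

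Pellet over cytosol gave a like split by stage. In eggs the log2 fold change was 4.11 ± 0.09 for ctsv.L, 3.77 ± 0.09 for ctsv.S, 2.99 ± 0.07 for ctsb.L and 2.15 ± 0.06 for ctsb.S, the last of which flips to -0.0878 in limma on log2(attomolar + 0.01). In oocytes it was 0.66 ± 0.08 for ctsv.S, which flips to -1.09 under scaling to the spike-ins, 0.14 ± 0.07 for ctsv.L, which likewise flips to -1.61, -0.08 ± 0.06 for ctsb.L and -0.66 ± 0.06 for ctsb.S. Scaled to the spike-ins, pellet over cytosol in eggs was 2.15 for ctsv.L, 1.80 for ctsv.S, 1.02 for ctsb.L and 0.19 for ctsb.S, where the median of all transcripts tested was -1.94. In oocytes it was -1.84 for ctsb.L and -2.41 for ctsb.S, against a median of -1.68. Called higher in the pellet with TMM scaling were 34.4% of transcripts in eggs and 35.6% in oocytes. Called lower were 32.4% in eggs and 32.6% in oocytes. The comparisons of ER and of pellet with cytosol share the cytosol libraries of their stage, and so do those between stages.

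The authors' shares of copies, in percent of each transcript's attomolar total over the 3 fractions, put these values on 1 scale. The cytosol held 15.7, 19.1 and 18.2% of ctsb.L copies in eggs, against 57.9, 63.8 and 52.9% in oocytes. It held 24.6, 29.3 and 26.8% of ctsb.S copies in eggs, against 58.9, 66.3 and 56.4% in oocytes. For cathepsin B most copies were therefore cytosolic in oocytes and most were outside the cytosol in eggs. The cytosol held 8.81, 10.2 and 10.3% of ctsv.L copies in eggs, against 47.2, 53.3 and 44.6% in oocytes. It held 10.7, 14.99 and 14.0% of ctsv.S copies in eggs, against 27.0, 32.8 and 27.4% in oocytes. By mean share, cathepsin V was less cytosolic than cathepsin B in both stages, although the oocyte values of ctsv.L and ctsb.L overlapped. Most copies of ctsv.S lay in the ER in oocytes.

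The change in mean cytosolic share, egg minus oocyte, was -40.6 percentage points for ctsb.L, -38.6 for ctsv.L, -33.7 for ctsb.S and -15.8 for ctsv.S. The typical transcript went the other way: over 18241 transcripts at 1 TPM or more in every library, the median cytosolic share was 68.4% in eggs and 52.9% in oocytes, and the median change was 14.9 points. The share was lower in eggs for 962 of these (5.27%), and for 375 (2.06%) the egg values all lay below the oocyte values, as they did for all 4 cathepsin mRNAs. No transcript of the 18241 had a larger drop than ctsb.L, and the 1 with a larger drop than ctsv.L was ctsb.L. A larger drop than that of ctsb.S was found for 13 and than that of ctsv.S for 118. A lower egg share than that of ctsv.L was found for 8 transcripts, than that of ctsv.S for 12, than that of ctsb.L for 23 and than that of ctsb.S for 86. All these counts were taken with the cathepsin B and V mRNAs left in.

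The copies outside the cytosol lay in both other fractions. The ER held 51.3 ± 8.83% of ctsb.L copies in eggs and 28.5 ± 5.61% in oocytes (SD, n = 3 each). It held 46.9 ± 7.30% of ctsb.S in eggs and 30.2 ± 4.21% in oocytes, and 52.6 ± 10.8% of ctsv.L in eggs and 38.6 ± 4.70% in oocytes. For ctsv.S the order was turned, with 46.9 ± 9.84% in eggs and 59.2 ± 3.38% in oocytes. The median transcript had 18.7% of its copies in the ER in eggs and 33.4% in oocytes.

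The pellet held 31.0 ± 10.5% of ctsb.L in eggs and 13.2 ± 3.51% in oocytes, and 26.2 ± 9.06% of ctsb.S in eggs and 9.21 ± 3.43% in oocytes. It held 37.7 ± 11.7% of ctsv.L in eggs and 13.0 ± 3.84% in oocytes, and 39.8 ± 11.97% of ctsv.S in eggs and 11.7 ± 4.81% in oocytes. The median transcript had 12.04% of its copies in the pellet in eggs and 12.4% in oocytes. Replicate 1 had the highest pellet share of every cathepsin mRNA in both stages, for example 53.7% of ctsv.S copies in eggs, against 32.7 and 33.1% in the other egg replicates. Its pellet library also had the highest attomolar total, 15013 against 8273 and 8767 in eggs and 12437 against 6581 and 8249 in oocytes.

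**Figure D3:**
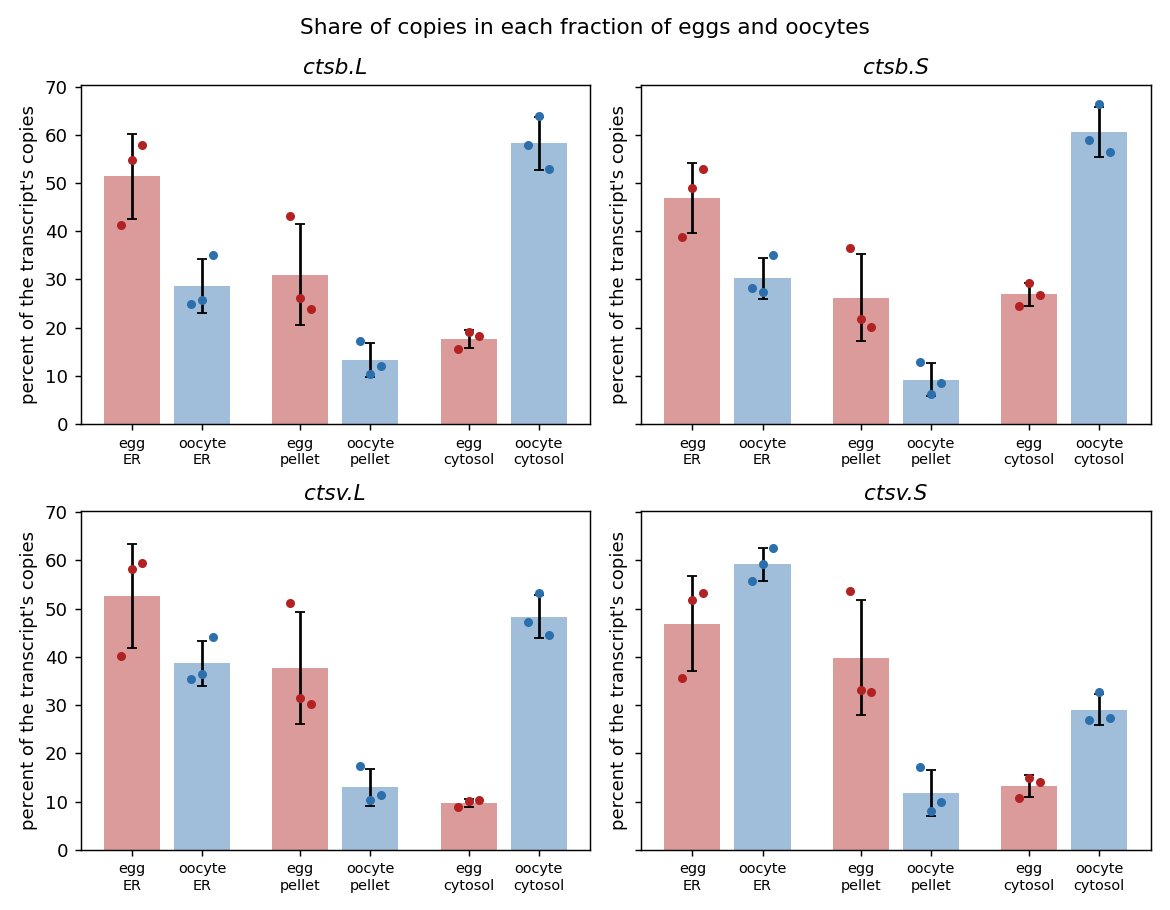
Share of each transcript's copies found in each fraction (vertical axis, percent of its attomolar total over the 3 fractions) in each replicate (points), with the mean (bar) and SD (error bar, n = 3), eggs in red and oocytes in blue. The cytosolic shares of ctsb.L lie between 15.7 and 19.1% in eggs and between 52.9 and 63.8% in oocytes, and replicate 1 is the highest pellet point in each panel.

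Summed over the 3 fractions, the mRNAs were also less abundant in eggs. The sum for ctsb.L was 15.6, 13.8 and 15.005 attomolar in eggs, against 29.4, 28.5 and 28.2 attomolar in oocytes. For ctsb.S it was 17.3, 15.6 and 16.9 attomolar in eggs, against 27.1, 28.2 and 26.9 attomolar in oocytes. For ctsv.L it was 11.6, 9.60 and 10.7 attomolar in eggs, against 19.6, 19.1 and 18.5 attomolar in oocytes. For ctsv.S it was 12.8, 11.1 and 12.2 attomolar in eggs, against 19.2, 20.3 and 18.0 attomolar in oocytes. No egg sum reached an oocyte sum for any of them.

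The ratio of egg to oocyte sums was 0.516 for ctsb.L, 0.558 for ctsv.L, 0.605 for ctsb.S and 0.628 for ctsv.S, against a median of 1.11 over the 18241 transcripts. Of these, 0.389% had a lower ratio than ctsb.L and 1.26% a lower one than ctsv.S. In the deposited table all transcripts together come to 70657 attomolar in every stage and replicate, so they cannot show a change in total RNA. With TPM divided by the spike-in TPM of each library, a scale with no such fixed total, the ratios were 0.513, 0.558, 0.604 and 0.645 in the same order, against a median of 0.997.

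**Figure D4:**
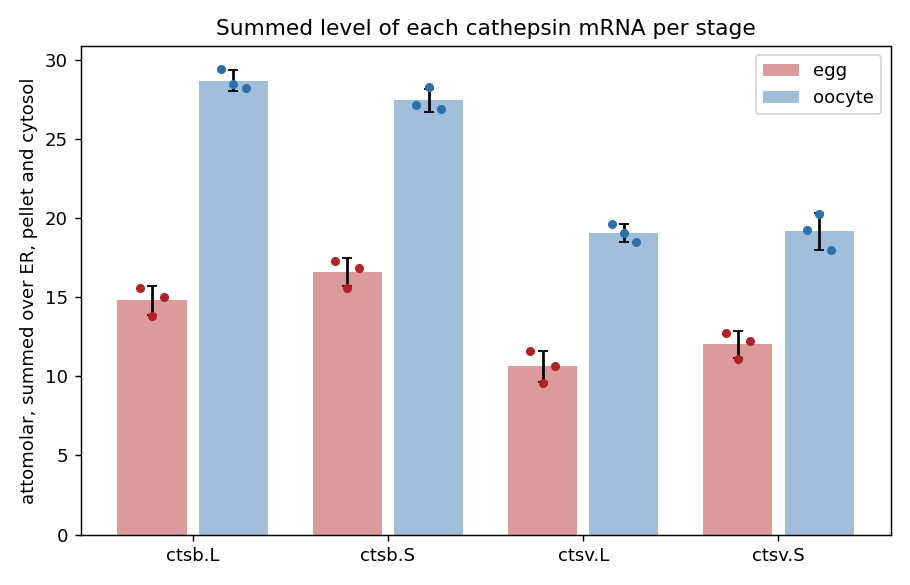
Attomolar concentration of each cathepsin mRNA summed over the ER, pellet and cytosol fractions (vertical axis) of each replicate (points), with the mean (bar) and SD (error bar, n = 3), eggs in red and oocytes in blue. The sums of ctsb.L lie between 13.8 and 15.6 attomolar in eggs and between 28.2 and 29.4 attomolar in oocytes.

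Levels of the 4 mRNAs can be ordered in TPM, a scale corrected for transcript length. In egg cytosol the order was ctsb.S at 111 ± 6.54 TPM, ctsb.L at 65.7 ± 4.55, ctsv.S at 40.04 ± 1.90 and ctsv.L at 26.5 ± 4.21 TPM (SD, n = 3 each), with no overlap between neighbours. In oocyte cytosol ctsb.L at 483 ± 7.98 TPM and ctsb.S at 481 ± 24.8 TPM overlapped, followed by ctsv.L at 275 ± 3.10 and ctsv.S at 171 ± 15.2 TPM. In egg ER ctsb.S at 392 ± 34.6 and ctsb.L at 382 ± 35.3 TPM overlapped each other, as did ctsv.S at 285 ± 32.7 and ctsv.L at 281 ± 25.4 TPM. In oocyte ER the order was ctsv.S at 386 ± 31.2, ctsb.S at 284 ± 15.7, ctsb.L at 279 ± 28.7 and ctsv.L at 254 ± 12.8 TPM, where ctsb.L overlapped both ctsb.S and ctsv.L. In egg pellet ctsv.S averaged 417 ± 7.01, ctsb.L 398 ± 18.4, ctsb.S 378 ± 15.7 and ctsv.L 352 ± 14.6 TPM, and all neighbours overlapped. In oocyte pellet ctsb.L stood apart at 395 ± 11.4 TPM, above ctsb.S at 263 ± 11.3, ctsv.L at 262 ± 17.5 and ctsv.S at 234 ± 23.1 TPM, which overlapped. By mean TPM, ctsb.L ranked 58 among 51026 transcripts in egg ER and 192 in oocyte ER, but 4457 in egg cytosol and 99 in oocyte cytosol. The rank of ctsv.L was 114 in egg ER and 230 in oocyte ER, but 10309 in egg cytosol and 316 in oocyte cytosol.

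The transcripts named L and S kept similar levels in some groups and parted in others. The log2 ratio of ctsb.L to ctsb.S was -0.76 ± 0.05 in egg cytosol and 0.01 ± 0.07 in oocyte cytosol, so the S copy was the more abundant one in all 3 egg cytosol libraries. It was 0.07 ± 0.01 in egg pellet and 0.59 ± 0.10 in oocyte pellet, and -0.04 ± 0.02 in egg ER and -0.03 ± 0.08 in oocyte ER. The log2 ratio of ctsv.L to ctsv.S was -0.61 ± 0.19 in egg cytosol and 0.69 ± 0.11 in oocyte cytosol, with opposite signs in all 3 libraries of each. In the ER it was -0.02 ± 0.04 in eggs and -0.60 ± 0.16 in oocytes, and in the pellet -0.25 ± 0.04 in eggs and 0.17 ± 0.11 in oocytes. Reads shared by near-identical transcripts are divided between them by the quantification, so each gene was also taken as the sum of its pair. Summed, cathepsin B was at 177 ± 10.8 TPM in egg cytosol and 964 ± 29.2 TPM in oocyte cytosol, and cathepsin V at 66.5 ± 5.70 TPM in egg cytosol and 446 ± 18.2 TPM in oocyte cytosol.

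With TMM scaling, other cathepsin mRNAs moved in both directions in the cytosol. Of 17 further cathepsin transcripts by symbol, 11 passed the filter on low counts. In egg cytosol 3 of them rose (27.3%) and 2 fell (18.2%) relative to oocyte cytosol, beside 18.4% and 18.6% of all transcripts tested. With spike-in scaling 4 rose (36.4%) and none fell, beside 10.1% and 2.45% of all. In limma on log2(attomolar + 0.01) also 4 rose and none fell, beside 21.15% and 1.265% of all. Of the highest level in oocyte cytosol, ctsc.S (cathepsin C, a dipeptidyl peptidase) was at 124 ± 3.60 TPM in egg cytosol and 152 ± 15.9 TPM in oocyte cytosol and fell by 0.39 on the log2 scale (SE 0.06, edgeR adjusted p = 1.97e-05), although under spike-in scaling this value was -0.13 with an adjusted p of 0.778 and in limma on attomolar values it flips to 0.02. Its homeolog ctsc.L, with 135 ± 1.77 TPM in egg cytosol and 64.1 ± 8.46 TPM in oocyte cytosol, rose by 0.98 (SE 0.07, edgeR adjusted p = 1.61e-10). Cathepsin D, ctsd.S, rose by 0.54 (SE 0.06, edgeR adjusted p = 3.57e-07), with 70 ± 1.85 TPM in egg cytosol and 45.1 ± 3.43 TPM in oocyte cytosol. Cathepsin A, ctsa.L, a serine carboxypeptidase, rose by 0.90 (SE 0.09, edgeR adjusted p = 3.36e-08), and ctso.L fell by 0.53 (SE 0.15, edgeR adjusted p = 0.00775). For ctso.L the adjusted p was 0.583 under spike-in scaling and 0.0597 without oocyte cytosol replicate 1, and in limma on attomolar values its sign flips to 0.06. Among the remaining cathepsin transcripts the highest mean in any group was 11.6 TPM, that of ctsz.S in egg pellet, and ctsl.L, the cathepsin L transcript listed in the files, was at 0 in all.

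In the pellet, 5 of the 11 rose (45.5%) and 1 fell (9.09%) in eggs relative to oocytes, beside 22.3% and 21.4% of all transcripts tested. Under scaling to the spike-ins 3 rose (27.3%) and none fell, beside 5.46% and 4.74% of all. Cathepsin Z, ctsz.S, a carboxypeptidase, rose by 2.32 on the log2 scale (SE 0.32, edgeR adjusted p = 3.08e-06), with 11.6 ± 1.10 TPM in egg pellet and 2.48 ± 0.721 TPM in oocyte pellet. Cathepsin S, ctss.S, known in mammals from antigen-presenting cells, rose by 2.00 (SE 0.42, edgeR adjusted p = 0.000576), with 3.39 ± 0.660 TPM in egg pellet and 0.902 ± 0.211 TPM in oocyte pellet. Both have their highest levels in the pellet, as the sum of follicle and theca cell markers above does, and the part of somatic cells in these values was not tested. In the ER 4 of the 11 rose (36.4%) and none fell, beside 12.4% and 16.1% of all. Under scaling to the spike-ins 2 rose (18.2%) and 3 fell (27.3%) in the ER, beside 0.790% and 61.3%. Among those that rose with TMM scaling was ctsc.S, by 0.42 (SE 0.06, edgeR adjusted p = 1.34e-05), whose sign flips to -0.29 under scaling to the spike-ins.

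**Figure D5:**
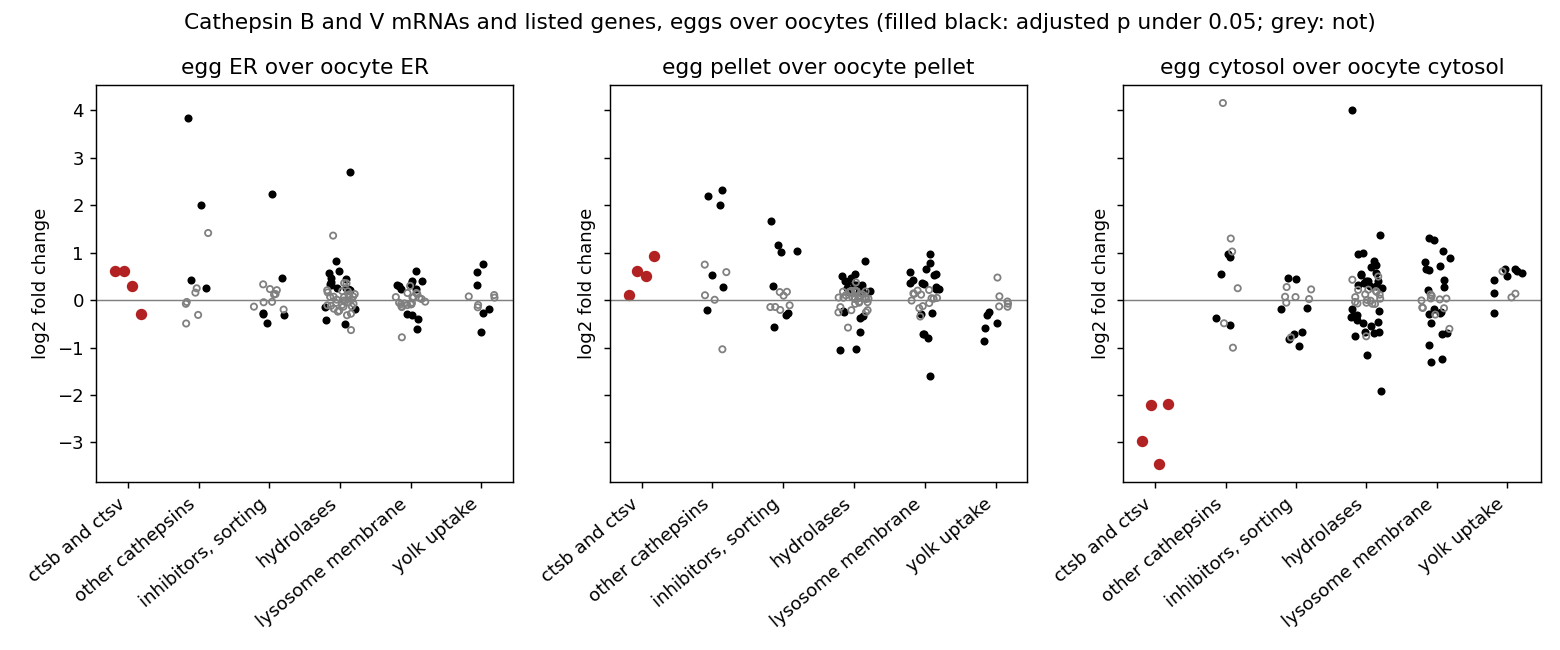
Log2 fold change of egg over oocyte in the ER, pellet and cytosol for each tested transcript of the cathepsin and lysosomal lists (points), filled black where the adjusted p was under 0.05 and grey where not, with the 4 cathepsin B and V mRNAs in red, from the edgeR fit with TMM scaling. In the cytosol the cathepsin B and V mRNAs lie between -3.46 and -2.18, below galns.L at -1.91.

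The wider lysosomal pathway was read from 3 lists, without cathepsins B and V. They held cathepsin inhibitors and sorting factors, hydrolases and activators, and lysosomal membrane, transport and regulator genes. The hydrolase list includes tpp2.L, tpp2.S and pepd.L, which encode cytosolic peptidases, so the counts below are not of lysosomal transcripts alone. A separate list of yolk uptake genes is given after these lists. Together with the other cathepsins the first 3 lists matched 119 transcripts, of which 109 were tested. In egg cytosol 34 of the 109 rose and 33 fell relative to oocyte cytosol, which is 31.2% and 30.3% beside 18.4% and 18.6% of all transcripts tested, and the median log2 fold change was 0.03 against -0.01 for all tested. Under scaling to the spike-ins 25 rose and 6 fell, which is 22.9% and 5.505% beside 10.1% and 2.45% of all transcripts. In the pellet 37 rose and 17 fell, which is 33.9% and 15.6% beside 22.3% and 21.4% of all, with a median of 0.12 against -0.01. In the ER 28 rose and 12 fell, which is 25.7% and 11.01% beside 12.4% and 16.1% of all, with a median of 0.06 against -0.01. Under scaling to the spike-ins 3 rose and 64 fell in the ER, which is 2.75% and 58.7% beside 0.790% and 61.3% of all. Within eggs, 46 (42.2%) were higher and 8 (7.34%) lower in ER than in cytosol, beside 18.4% and 21.7% of all, and 59 (54.1%) were higher and 21 (19.3%) lower in pellet than in cytosol, beside 34.4% and 32.4%. Under scaling to the spike-ins these splits turn to 2 higher and 91 (83.5%) lower in ER, beside 92.7% of all lower. In pellet they turn to 6 higher and 93 (85.3%) lower, beside 87.2% of all lower. The lower counts thus lie near or below the share of all transcripts. The 2 higher in ER are 1.8% beside 0.54% of all, and the 6 higher in pellet are 5.5% beside 3.2%. Within oocytes, 55 (50.5%) were higher and 19 (17.4%) lower in ER than in cytosol, beside 24.3% and 24.8%, and 61 (56.0%) were higher and 27 (24.8%) lower in pellet than in cytosol, beside 35.6% and 32.6%. Under scaling to the spike-ins these turn to 8 (7.34%) higher and 48 (44.0%) lower in ER, beside 2.56% and 60.3% of all. In pellet they turn to 4 (3.67%) higher and 86 (78.9%) lower, beside 3.89% and 82.9%.

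Sorting factors and inhibitors split in the cytosol, where 2 of 15 tested rose (13.3%) and 6 fell (40%), beside 18.4% and 18.6% of all transcripts tested. Under scaling to the spike-ins 2 rose and 1 fell (6.67%), beside 10.1% and 2.45% of all. Legumain, lgmn.S, the protease that trims several cathepsin precursors, fell by 0.96 in egg cytosol (SE 0.08, edgeR adjusted p = 2.88e-09) and rose by 1.03 in egg pellet (SE 0.08, edgeR adjusted p = 1.53e-09). In limma on log2(attomolar + 0.01) the cytosolic value of lgmn.S was -0.50 with an adjusted p of 0.213. Cystatin C, cst3.S, a secreted cathepsin inhibitor, fell by 0.70 in egg cytosol (SE 0.12, edgeR adjusted p = 5.54e-05), which spike-in scaling turned to -0.43 with an adjusted p of 0.263, and rose by 1.01 in egg pellet (SE 0.11, edgeR adjusted p = 2.15e-07). Sortilin, sort1.S, a receptor that carries lysosomal proteins out of the Golgi, rose by 0.45 in egg cytosol (SE 0.06, edgeR adjusted p = 9.56e-07).

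Of 51 tested hydrolases and their activators, 18 rose (35.3%) and 15 fell (29.4%) in egg cytosol, beside 18.4% and 18.6% of all transcripts tested. Under scaling to the spike-ins 10 rose (19.6%) and 2 fell (3.92%), beside 10.1% and 2.45% of all. With TMM scaling those that fell include tpp2.L and tpp2.S, of cytosolic peptidases, at -0.68 and -0.76. The largest fall was that of galns.L, a sulfatase that degrades keratan sulfate, by 1.91 (SE 0.10, edgeR adjusted p = 2.97e-12), and acp2.S, lysosomal acid phosphatase, fell by 1.16 (SE 0.06, edgeR adjusted p = 1.22e-12), a value of -0.70 with an adjusted p of 0.0756 in limma on log2(attomolar + 0.01). In the other direction naga.S, an N-acetylgalactosaminidase, rose by 4.004 (SE 0.17, edgeR adjusted p = 5.74e-14) and psap.L, the precursor of the saposins, by 0.97 (SE 0.06, edgeR adjusted p = 8.42e-11).

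Of 32 tested lysosomal membrane, transport and regulator transcripts, 11 rose (34.4%) and 10 fell (31.2%) in egg cytosol, beside 18.4% and 18.6% of all transcripts tested. Under scaling to the spike-ins 9 rose (28.1%) and 3 fell (9.4%), beside 10.1% and 2.45% of all. The channel gene mcoln1.L fell by 1.30 (SE 0.06, edgeR adjusted p = 2.85e-13), and lamp1.L, a major protein of the lysosomal membrane, fell by 1.24 (SE 0.07, edgeR adjusted p = 2.71e-12). In the other direction atp6ap2.L, an accessory protein of the vacuolar proton pump, rose by 1.27 (SE 0.08, edgeR adjusted p = 1.73e-11), and cd63.S, a tetraspanin of late endosomes and lysosomes, rose by 1.03 (SE 0.07, edgeR adjusted p = 1.88e-10).

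With TMM scaling, calls in the yolk uptake list differed in direction between the fractions. Of its 11 tested transcripts, 7 rose (63.6%) and 1 fell (9.09%) in egg cytosol, beside 18.4% and 18.6% of all transcripts tested. In egg pellet none rose and 5 fell (45.5%), beside 22.3% and 21.4% of all. In egg ER 3 rose and 3 fell (27.3% each), beside 12.4% and 16.1%. Under scaling to the spike-ins 6 rose and none fell in the cytosol, beside 10.1% and 2.45% of all. With that scaling none rose and 7 fell (63.6%) in the ER, beside 0.790% and 61.3%. In the cytosol vldlr.S, a transcript of the vitellogenin receptor gene, rose by 0.61 (SE 0.06, edgeR adjusted p = 4.12e-08). In the pellet lrp1.S, an endocytic receptor, fell by 0.86 (SE 0.06, edgeR adjusted p = 1.02e-10) and vldlr.S fell by 0.25 (SE 0.06, edgeR adjusted p = 0.00194). Under scaling to the spike-ins 1 of the 11 fell in the pellet, lrp1.S (9.09%, beside 4.74% of all), and vldlr.S was at -0.20 with an adjusted p of 0.702. In limma on log2(attomolar + 0.01) none of the 11 was called in the pellet, where lrp1.S was at -0.82 with an adjusted p of 0.143.

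By share of copies, some of these transcripts also had a lower cytosolic share in eggs. Among 102 listed transcripts, yolk uptake included, at 1 TPM or more in every library, 7 had egg values that all lay below the oocyte values. They were galns.L, lamp1.L, mcoln1.L, lgmn.S, lamp1.S, acp2.S and cst3.S. Of all 18241 transcripts at that level, 2.06% had such values. By list these 7 were 14.3% of 14 inhibitors and sorting factors, 10.3% of 29 membrane, transport and regulator transcripts and 4.44% of 45 hydrolases and activators. None was among the 5 other cathepsins or 9 yolk uptake transcripts. For 75 of the 102 the egg values all lay above the oocyte values, beside 76.2% of all. The largest drop was that of galns.L, with 48.1 ± 6.43% in eggs and 62.9 ± 3.53% in oocytes, a change of -14.8 points. That of lamp1.L was next, with 33.8 ± 3.24% in eggs and 47.1 ± 4.13% in oocytes. Each of the 4 cathepsin B and V mRNAs had a larger drop than any of these 7, and the values of ctsv.S and galns.L, -15.8 and -14.8 points, lay close together.

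The transcripts most like each cathepsin mRNA were found by Pearson's r of log2 CPM over the 18 libraries, which share fractions and depth, among 11618 transcripts with a symbol and a mean log2 CPM of at least 3. For ctsb.L they were alg6.L (r = 0.984), pigb.S, spint2.S, tm9sf1.L and slc39a11.L (r = 0.976). For ctsb.S they were mfsd9.L (r = 0.993), spint1.L, celsr2.L, atp13a4.S and chpt1.L (r = 0.980). For ctsv.L they were slc39a11.L (r = 0.990), zmpste24.L, spint2.S, tpbg.L and tm9sf2.S (r = 0.988). For ctsv.S they were plcb3.L (r = 0.996), serinc2.L, pld3.L, uxs1.L and f11r.S (r = 0.972). Roles are given here for only some of them. The genes alg6 and pigb encode enzymes of the ER that build glycans, and spint1 and spint2 encode Kunitz-type inhibitors of serine proteases. The genes tm9sf1 and tm9sf2 encode proteins with several membrane spans. Roles of the others, with plcb3.L of the highest r among them, are left out, and a shared role was not tested. Among themselves the 4 mRNAs had r between 0.862 for ctsb.S with ctsv.S and 0.984 for ctsb.L with ctsv.L. The 99th percentile of r over the candidates was 0.877 for ctsb.L and 0.910 for ctsv.S. The mean level of plcb3.L was 66.4 TPM in egg cytosol and 265 TPM in oocyte cytosol, and 455 TPM in egg ER and 582 TPM in oocyte ER.

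The authors' deposited table also gives transcripts a class for the axis between the pigmented animal pole and the yolk-rich vegetal pole. It has ctsb.L, ctsb.S and ctsv.L as animal and ctsv.S as extremely animal. Of the 18241 transcripts at 1 TPM or more in every library, 57.6% were classed animal and 1.51% extremely animal. A cytosolic share whose egg values all lay below the oocyte values was found for 225 of 10500 animal transcripts (2.14%), 11 of 275 extremely animal ones (4%) and none of 129 vegetal or 22 extremely vegetal ones. It was found for 138 of 7186 transcripts with no class (1.92%) and 1 of 129 classed other (0.775%), beside 375 of all 18241 (2.06%). The animal share thus lay near that of all transcripts. A link between class and cytosolic share was not tested. The animal and extremely animal counts include the cathepsin B and V mRNAs.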

How the data were processed

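RNA was measured in 18 libraries, each from 4 cells. Per the labels, libraries were stranded, made after removal of ribosomal RNA and run on 1 lane. Reads were processed by the authors with bcl2fastq 2.20 and kallisto 0.46.2, as the submitters' processing notes list them. Neither transcript set nor genome build is given in the sources used here, and no sequence or position is printed. For each library the authors deposited a table of 51032 transcripts, 5 of them spike-ins, with estimated counts, TPM and, as an other unit, length. Between 66.2 and 72.3% of a library's transcript entries had an estimated count within 1e-06 of a whole number, entries without reads included. Per the labels, the authors used regression on the spike-ins to turn TPM into attomolar concentrations, which are the deposited signal values of the series table. A second deposited table gives percent values: the part of a transcript's attomolar sum that each fraction held. The deposited ratio values divide group means of attomolar concentrations. The authors' deposited class of each transcript by egg pole was taken as an annotation. Further columns of the series tables, 26 in number, were not used.

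Estimated counts were rounded, 1 unnamed transcript was left out, and library sizes excluded the spike-ins. A spike-in, gfp in the files, made up 81.6 to 89.7% of the spike-in counts, so spike-in scaling rests mainly on it. Transcripts passing filterByExpr by group (25938) were fitted in 1 model of all 18 libraries with TMM factors and the quasi-likelihood functions glmQLFit and glmQLFTest (edgeR 4.0.16, R 4.3.3), with 12 residual degrees of freedom and 7 comparisons that share libraries. Calls were made at a Benjamini-Hochberg adjusted p under 0.05 over all transcripts tested, and the SE of a log2 fold change is its size divided by the root of F. The code was tested on simulated data. Replicate libraries differed by more than sampling noise (chi-square per degree of freedom 3.78 to 19.9). Alternatives were spike-in scaling, RLE factors, DESeq2 1.42.0, no low-count filter, limma 3.58.1 on log2(attomolar + 0.01) or + 0.1, a replicate block, only the groups compared, and leaving out each library. Shares were also taken from TPM over spike-in TPM and from TPM alone. The log2 CPM values, used for Pearson's r, had a prior count of 0.5, and the printed CPM had none. The cathepsin mRNAs and the gene lists were chosen with earlier results of these data known. Genes were named by rule: the cathepsin B and V mRNAs, for each list and comparison the 2 called transcripts of lowest adjusted p per direction, the 5 nearest patterns of each, and the other cathepsins. Which of those so named are printed, and the 7 listed transcripts with lower cytosolic shares, was decided after their values were seen.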

Additional observations from a re-analysis of the deposited data

Results flagged for a closer look

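For each of the 4 mRNAs, the egg libraries lay wholly above the oocyte libraries in 1 fraction and wholly below them in another, or the ER or pellet libraries lay wholly above the cytosol in eggs and wholly below it in oocytes. How many of all transcripts take such positions was not counted, so they are not shown to be particular to these mRNAs. The differences between the 2 effects were not tested. These positions, and the log2 differences below, are those with TMM scaling. With spike-in scaling, egg over oocyte in the ER turned negative for ctsb.L, ctsb.S and ctsv.L, the same sign as in the cytosol. For ctsb.L, the log2 fold change of egg over oocyte was greater in the ER than in the cytosol by 3.58, and greater in the pellet than in the cytosol by 3.07. Its egg and oocyte pellet libraries overlapped on the TPM scale but not in CPM, and the log2 fold change there was only 0.10 ± 0.06. The same differences arise between stages, since ER over cytosol was greater in eggs than in oocytes by 3.58, and pellet over cytosol by 3.07. For ctsb.S the corresponding differences were 2.82 for the ER and 2.82 for the pellet, again from the same libraries whether read between fractions or between stages. For ctsv.L, whose ER libraries did overlap on the TPM scale but not in CPM, the log2 fold change of egg over oocyte was greater in the ER than in the cytosol by 3.76, and greater in the pellet than in the cytosol by 3.97. For ctsv.S it was greater in the pellet than in the cytosol by 3.11, and the difference of ER minus pellet was -1.21, since this transcript was lower in egg ER and higher in egg pellet.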

How the results depend on the processing

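Leaving out each library in turn left all 28 log2 fold changes of the cathepsin B and V mRNAs within the spread between replicates. RLE factors, DESeq2, a fit of only the groups compared and the replicate block did the same. Without the low-count filter 3 moved, all in oocyte pellet over cytosol. Scaling to the spike-ins or use of attomolar values had the most effect. The attomolar values sum to the same total in every stage and replicate, so they are no absolute scale between stages. Values between stages and reversals follow in the order of spike-in scaling, limma on log2(attomolar + 0.01) and limma on log2(attomolar + 0.1). Egg over oocyte in the ER turned negative at -0.11, -0.11 and -0.11 for ctsb.L, -0.0856, -0.096 and -0.0949 for ctsb.S, and -0.40, -0.42 and -0.41 for ctsv.L, and was -0.97, -1.03 and -1.02 for ctsv.S. In the cytosol it was -2.70, -2.67 and -2.63 for ctsb.L, -1.94, -1.90 and -1.87 for ctsb.S, -3.20, -3.14 and -3.04 for ctsv.L, and -1.92, -1.81 and -1.75 for ctsv.S. In the pellet it was 0.15, 0.25 and 0.25 for ctsb.L. Under the 2 limma fits it was 0.79 and 0.77 for ctsb.S, 0.68 and 0.66 for ctsv.L, and 1.13 and 1.09 for ctsv.S in the pellet. In oocytes, ER over cytosol turned to -0.46, -0.33 and -0.32 for ctsv.L, and pellet over cytosol to -1.09, -1.38 and -1.34 for ctsv.S. In eggs, pellet over cytosol of ctsb.S turned to -0.0878 and -0.0849 under the 2 limma fits. Other within-stage values kept their direction, apart from ctsv.L in oocyte pellet over cytosol, at -1.61, -1.93 and -1.89 against 0.14 with TMM scaling. Over the 3 fits, ER over cytosol in eggs was as low as 1.48 for ctsb.L, 0.76 for ctsb.S, 2.31 for ctsv.L and 1.75 for ctsv.S, and pellet over cytosol in eggs as low as 0.74 for ctsb.L, 1.81 for ctsv.L and 1.51 for ctsv.S. In oocytes, ER over cytosol was as low as -1.12 for ctsb.L, -1.10 for ctsb.S and 0.82 for ctsv.S, and pellet over cytosol as low as -2.16 for ctsb.L and -2.77 for ctsb.S. These alternatives do not set the typical transcript to no change, and spike-in scaling shifts the mean by -0.70, 0.02 and 0.26 for egg over oocyte in ER, pellet and cytosol.

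For the 109 cathepsin and lysosomal transcripts, yolk uptake left out, in the same order of alternatives, calls of egg over oocyte in the ER were 3, 2 and 1 higher and 64, 23 and 30 lower. Calls among all transcripts were not counted under the last alternative in that order. Whether its counts here and below differ from those of all transcripts is therefore not known. Lower calls were 58.7 and 21.1% of the 109 under the first 2 alternatives, beside 61.3 and 25.35% of all transcripts tested. Higher calls were 2.75 and 1.835%, beside 0.790 and 0.501% of all. In the pellet they were 9, 5 and 3 higher and 4, 1 and 0 lower, and in the cytosol 6, 3 and 4 lower. Under the first 2, pellet calls were 8.26 and 4.59% higher, beside 5.46 and 2.25% of all, and 3.67 and 0.917% lower, beside 4.74 and 1.76%. Those 2 also had 25 and 33 higher in the cytosol (22.9 and 30.3%), beside 10.1 and 21.15% of all. Lower in the cytosol were 5.505 and 2.75%, beside 2.45 and 1.265%. ER over cytosol had 8, 6 and 6 higher in oocytes, with 48 lower under spike-in scaling, and 2, 2 and 2 higher and 91, 89 and 91 lower in eggs. In oocytes 7.34 and 5.505% were higher under the first 2, beside 2.56 and 2.64% of all, and the 48 lower are 44.0%, beside 60.3%. In eggs 83.5 and 81.65% were lower, beside 92.7 and 92.5% of all, and 1.835% higher under each, beside 0.540 and 0.447%. Pellet over cytosol had 6, 4 and 3 higher and 93, 99 and 97 lower in eggs, against 4, 3 and 1 higher and 86, 87 and 84 lower in oocytes. Under the first 2, 85.3 and 90.8% were lower in eggs, beside 87.2 and 91.6% of all, and 5.505 and 3.67% higher, beside 3.20 and 2.00%. In oocytes 78.9 and 79.8% were lower, beside 82.9 and 83.2% of all, and 3.67 and 2.75% higher, beside 3.89 and 2.93%. Leaving out a library moved 1 of these counts by over 1.5 times: the 12 listed transcripts called lower in egg ER ranged over 7 to 11, with 7 without oocyte ER replicate 1. The cause was not tested for any of these moves.

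Shares of copies from TPM over spike-in TPM moved beyond the SD in 1 of 24 cases, ctsv.S in oocyte ER at 54.2%. TPM alone ignores how much RNA each fraction holds. It gave 47.1, 42.9, 53.4 and 56.3% in egg pellet for ctsb.L, ctsb.S, ctsv.L and ctsv.S, and 34.1, 25.6, 33.1 and 29.6% in oocyte pellet. It gave 7.77, 12.6, 4.02 and 5.40% in egg cytosol, against 41.7, 46.8, 34.8 and 21.6% in oocyte cytosol, and 32.1% for ctsv.L and 48.8% for ctsv.S in oocyte ER. Of the 5 nearest transcripts, 3, 3, 1 and 3 were the same with log2(TPM + 1).

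The replicate numbers are shared by all groups. Same-numbered egg and oocyte libraries had correlations of their deviations from -0.04 to 0.02, and same-numbered fractions of a stage from 0.08 to 0.18, where in all 12 cases a library deviated most like the one with its own number. The labels do not say that a number marks shared cells, so the main fit did not take the numbers as pairs. The deposited shares, and the sums over the 3 fractions, do add fractions of the same number. They rest on a match that the labels do not state. With the replicate block, the log2 fold change of egg over oocyte in the cytosol was -2.97 for ctsb.L, -2.20 for ctsb.S, -3.46 for ctsv.L and -2.18 for ctsv.S. Depth limits little here, since the lowest count of any of the 4 mRNAs was 341.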
